A study of Macaca mulatta with 6 samples.

Results

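H/ACA box small nucleolar RNAs (snoRNAs) were examined in the testes of 6 wild-type rhesus monkeys of juvenile age, as all genes of the small RNA count table whose name starts with SNORA. There were 238 such genes of 3083 in the table, under 70 names. Animals 7, 9 and 11 (aged 24, 14 and 15 months) were infused with vehicle for 48 h. Animals 8, 10 and 12 (aged 22, 14 and 15 months) received a pulsatile infusion of both gonadotropins, luteinizing hormone and follicle-stimulating hormone, over the same 48 h. Each library came from the right testis of its animal and holds all cell types of the organ, so fewer cells of a type and less RNA per cell cannot be told apart. The series asks how gonadotropins alter small RNAs of the testis at the onset of puberty. The titles name small RNA sequencing on Ion Torrent, whereas the extraction protocol names a stranded total RNA kit with Illumina library steps.

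H/ACA snoRNAs fold into paired hairpins joined by a hinge with the H box and closed by a tail with the ACA motif. Each works in a particle with dyskerin, GAR1, NHP2 and NOP10, and most guide the conversion of uridine to pseudouridine at chosen positions of ribosomal RNA. Most are cut from introns of host genes, many of which encode ribosomal proteins or translation factors. They are therefore tied to ribosome building, which growing and dividing cells carry out in large amounts. C/D box snoRNAs (SNORD genes) guide 2'-O-methylation instead, and small Cajal body RNAs (SCARNA genes) guide modification of spliceosomal RNAs.

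The libraries held 2146412 to 3170784 counts over small RNA genes. Vehicle 7, the oldest animal, had the lowest scaling factor between libraries (0.784, against 0.987 to 1.16 in the others) and the lowest SNORA and SNORD shares. Tissue markers came from the miRNA table of the same animals (CPM of library totals). The summed level of the 17 germ line and testis miRNA names was 49618 to 70990 CPM with vehicle and 55423 to 75033 CPM with gonadotropin, and that of the 2 names of the liver miRNA miR-122 was 0.713 to 1.34 CPM over all 6. The 7 blood names summed to 4132 to 10415 CPM with vehicle and 8073 to 10033 CPM with gonadotropin, the endothelial miR-126 was at 4729 to 8668 and 7382 to 12728 CPM, the 5 muscle names at 28.3 to 41.3 and 32.6 to 44.2 CPM, the 8 epithelial names at 80.5 to 187 and 85.8 to 174 CPM, and the 3 neural names at 67.0 to 137 and 102 to 113 CPM. No marker name was at 0 in all libraries, and the part of these cells in the SNORA values was not tested.

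H/ACA snoRNAs were a minor class, with at most 0.0974% of the counts in any library. The 238 genes took 1396 of 2930969 counts in vehicle 7, 2509 of 2716628 in vehicle 9 and 1623 of 2447997 in vehicle 11, which are shares of 0.0476%, 0.0924% and 0.0663%. In gonadotropin libraries 8, 10 and 12 they took 2090, 1948 and 1805 counts, or 0.0974%, 0.0614% and 0.0701%. The 95% Wilson intervals, which cover counting error only, were 0.0452% to 0.0502% for vehicle 7 and 0.0933% to 0.102% for gonadotropin 8, the lowest and the highest library. The groups overlapped: 1 library of each group lay above 0.09%. The mean share was 0.0688% ± 0.0225 in vehicle and 0.0763% ± 0.0188 in gonadotropin libraries (SD, n = 3 each; exact two-sided permutation p = 0.6, where 0.1 is the smallest p that 3 against 3 can give). The difference of 0.00754 percentage points turned to -0.00303 without vehicle 7 and to -0.0030 without gonadotropin 8.

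SNORA counts were set against SNORD counts of the same library, a ratio that needs no scaling between libraries. For every 100 SNORD counts there were 3.33 SNORA counts in vehicle 7, 1.93 in vehicle 9 and 1.73 in vehicle 11. The values were 2.68, 1.89 and 3.26 in gonadotropin 8, 10 and 12. Vehicle 7 and gonadotropin 12 stood highest, and these had the lowest SNORD shares (1.43% and 2.15%, against 3.26% to 4.77% elsewhere). The log2 ratio was -5.48 ± 0.51 in vehicle and -5.30 ± 0.40 in gonadotropin libraries (SD, n = 3 each), a difference of 0.19 within the spread of both groups (exact two-sided permutation p = 0.8). It was 0.48 without vehicle 7 and 0.0026 without vehicle 11.

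**Figure D1:**
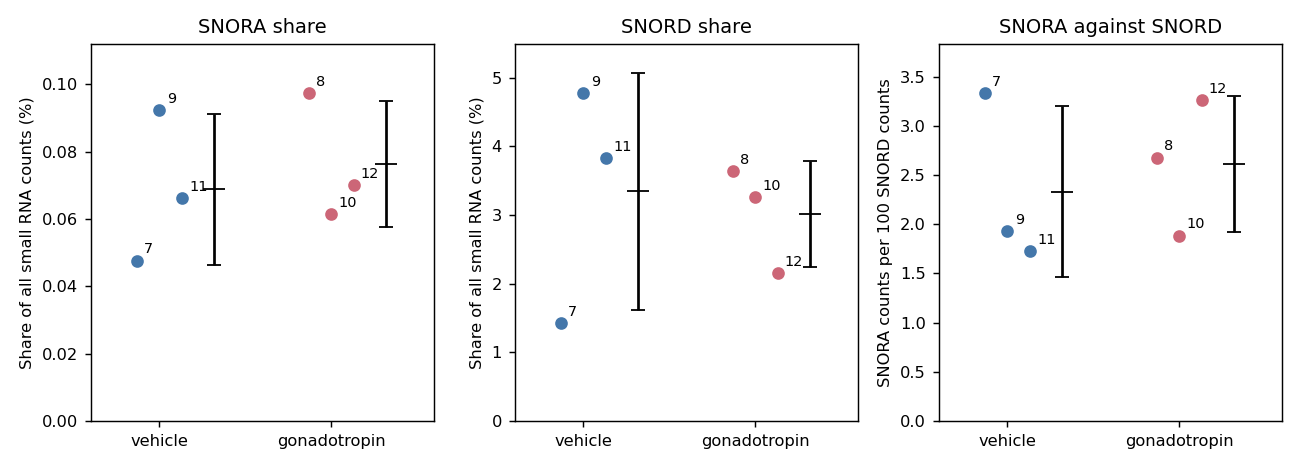
Share of all small RNA counts (percent) taken by SNORA genes and by SNORD genes, and SNORA counts per 100 SNORD counts, for each library (points, numbered by animal), with the mean and SD of 3 libraries per group (bars). The groups overlap in all 3 panels, and vehicle 7 has the lowest shares of both classes and the highest ratio.

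Most SNORA genes were near the detection limit. Of the 238 genes, 150 had fewer than 20 counts over the 6 libraries together, and 104 had at most 6. The number of genes with at least 1 count was 136 to 173 per library, and 40 to 58 genes had at least 10. Counts were concentrated: the 10 genes with the most counts held 44.1% of the 11371 SNORA counts. These 10 included SNORA73 and SNORA81 copies with equal or similar counts. Such copies may share reads, so some reads may be counted at more than 1 gene. Per 100 nt of annotated length, the median level over genes was 0.387 CPM for the 238 SNORA genes (median length 132.5 nt) and 12.8 CPM for the 276 SNORD genes (median length 80 nt). Over only the genes with enough counts for a test (51 SNORA and 177 SNORD), the medians were 6.02 and 53.0 CPM. CPM of small RNA genes are counts per 1e6 after trimmed mean of M values (TMM) scaling. Since the read length is not given in the sources used here, whether these counts are whole snoRNAs or fragments was not tested.

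SNORA73 was the most abundant name. Unlike most of its class it is known for its part in the maturation of 18S rRNA rather than as a modification guide, and its 5 genes held 2670 counts, 23.5% of all SNORA counts. Of these genes, ENSMMUG00000024314 and its scaffold copy ENSMMUG00000047085 had 779 counts each, identical in every library. The same reads may be counted at both, so this share may be too high. A pair of neighbouring copies lies on chromosome 1 in plus orientation (27453392 to 27453596 and 27454286 to 27454489, rheMac8). The second (ENSMMUG00000024314) was at 30.5, 53.5 and 47.6 CPM in vehicle 7, 9 and 11 and at 64.6, 51.5 and 42.9 CPM in gonadotropin 8, 10 and 12. The group ranges overlapped, with vehicle 7 lowest and gonadotropin 8 highest.

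Its mean was 43.9 ± 11.96 CPM with vehicle and 53.0 ± 10.9 CPM in gonadotropin (SD, n = 3 each). The log2 fold change was 0.27 (SE 0.40, 95% interval -0.64 to 1.18), with an adjusted p = 0.998 in edgeR's quasi-likelihood test, and it was 0.086 without vehicle 7 and 0.41 without gonadotropin 12. For the first copy (ENSMMUG00000025750) this value was 0.15 (SE 0.39), and for the copy on chromosome 18 (ENSMMUG00000024785; 10273187 to 10273391) it was 0.19 (SE 0.38). Without gonadotropin 8 these last values were -0.03 each, so the sign of both rested on that library.

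SNORA81 came second, with 1142 counts over 4 genes, or 10.0% of the SNORA counts. Of these, 555 lay at a chromosomal gene and 580 at a scaffold copy with similar counts in each library. Both genes may share reads, so this share may be too high. SNORA81 lies with SNORA63 and SNORA4 within 192835153 to 192836208 of chromosome 2 (rheMac8, minus strand). The human counterparts of this trio are intronic in EIF4A2, which encodes a translation initiation factor. SNORA81 (ENSMMUG00000036683) was at 29.6, 49.1 and 30.8 CPM in vehicle 7, 9 and 11 and at 40.9, 29.7 and 27.4 CPM in gonadotropin 8, 10 and 12. Vehicle 9 and gonadotropin 8 were high and the other libraries lay close together. Its log2 fold change was -0.16 (SE 0.40), and 0.04 without vehicle 9.

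SNORA63 (ENSMMUG00000026177), a guide for 28S rRNA in human, had 17 to 28 counts per library and a highest level 1.48 times the lowest over 6 libraries. Its values were 9.15, 9.55 and 6.80 CPM with vehicle and 7.62, 8.63 and 10.0 CPM with gonadotropin (log2 fold change 0.04, SE 0.35). For SNORA4 (ENSMMUG00000026741), looked up after its neighbours, the value was 0.49 (SE 0.39). The 3 neighbours thus had values on either side of 0, all with intervals that span it. Per 100 nt their mean levels over 6 libraries differed, at 19.4 CPM for SNORA81, 6.79 CPM for SNORA4 and 6.54 CPM for SNORA63.

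**Figure D2:**
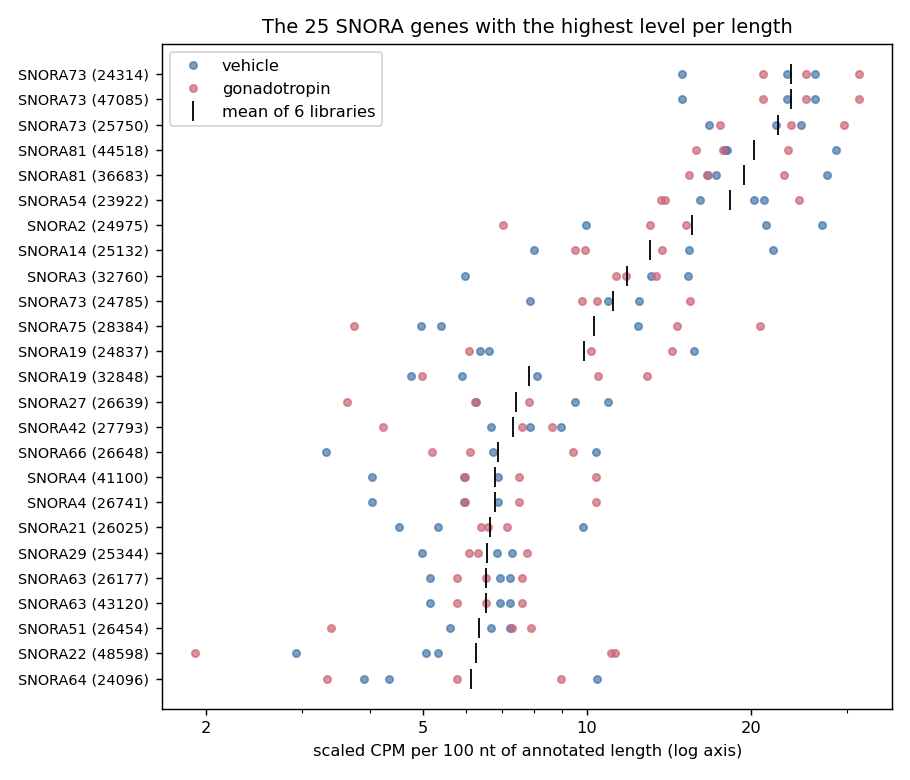
Scaled CPM per 100 nt of annotated length (log axis) of the 25 SNORA genes with the highest mean, in 3 vehicle and 3 gonadotropin libraries (points) with the mean of 6 (bars); names carry the last 5 digits of the Ensembl gene ID. The SNORA73 copies reach 23.7 CPM per 100 nt on average, and points of both groups are mixed in nearly every row.

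SNORA54, SNORA2, SNORA14 and SNORA3 completed the abundant genes. SNORA54 (ENSMMUG00000023922, chromosome 14, 2798266 to 2798389), a guide for 28S rRNA in human, was at 20.04, 26.2 and 25.2 CPM with vehicle and 30.5, 17.3 and 17 CPM with gonadotropin (log2 fold change -0.15, SE 0.39; -0.46 without gonadotropin 8 and -0.00054 without gonadotropin 12). SNORA2 (ENSMMUG00000024975, named SNORA2B in the gene name table; chromosome 11, 46947231 to 46947367) was at 37.0, 13.6 and 29.2 CPM in vehicle 7, 9 and 11 and at 9.62, 17.9 and 20.9 CPM in gonadotropin 8, 10 and 12. Only vehicle 7 and 11 lay above all gonadotropin libraries, and the log2 fold change was -0.72 (SE 0.49, 95% interval -1.84 to 0.41). It was -0.39 without vehicle 7 and -1.11 without vehicle 9 (edgeR quasi-likelihood adjusted p = 0.635). SNORA14 (ENSMMUG00000025132, SNORA14B in that table) lay between 10.8 and 29.6 CPM with vehicle and between 12.8 and 18.5 CPM with gonadotropin (-0.45, SE 0.45), and its value was -0.060 without vehicle 7 and -0.73 without vehicle 11. SNORA3 (ENSMMUG00000032760) was at 15.1 ± 6.41 CPM with vehicle and 16.0 ± 1.44 CPM in gonadotropin (SD, n = 3 each; 0.08, SE 0.43), and its value was -0.20 without vehicle 7.

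Genes with enough counts for a test numbered 51 of 238, under 35 names, and held 82.6% of the SNORA counts; the low-count filter left out the other 187. No SNORA gene passed the edgeR quasi-likelihood test (0 of 51 at an adjusted p of 0.05), where 1 of all 717 tested small RNA genes did (0.139%). At an unadjusted p of 0.05 the count was 0 of 51, against 32 of 717 (4.46%). DESeq2 called 0 and had 0 SNORA genes under an unadjusted p of 0.05, and the edgeR exact test called 0 and had 1. The smallest SNORA p was 0.0535 (adjusted p = 0.998, edgeR quasi-likelihood test). The exact test in the authors' deposited table held 93 SNORA genes, 46 with higher and 47 with lower values, and its smallest p for them was 0.0596 (adjusted value 1), for a SNORA52 gene (ENSMMUG00000046162).

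Of the 51 genes 31 had higher and 20 lower values in gonadotropin libraries, with a median log2 fold change of 0.04. Over all 717 genes 48.1% were higher and the median was -0.02. With library totals the median of all genes shifted to 0.09 and that of SNORA genes to 0.15, with 36 higher and 15 lower. With no low-count filter, over all 238 genes, the balance was opposite, at 102 higher and 136 lower with a median of -0.07. The sign also turned when single libraries were left out, where the filter was applied anew and so kept other numbers of genes. The median was -0.05 over 57 genes without vehicle 7 (28 higher, 29 lower), -0.07 over 59 genes without vehicle 11 (27 higher, 32 lower) and -0.02 over 54 genes without gonadotropin 8 (26 higher, 28 lower). Over the 6 libraries vehicle 9 was the highest for 19 of the 51 genes, and vehicle 7 and vehicle 11 were the lowest for 13 each. The 177 tested SNORD genes had a median of -0.30, and the class difference itself was tested only by the count ratio above.

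A missed threshold does not show equal levels here. The standard error of the log2 fold change was 0.35 to 0.82 over the 51 genes (median 0.48, against 0.44 over all tested genes). The 95% interval lay wholly within 1 log2 unit of 0, that is under a 2-fold change either way, for 6 of 51 SNORA genes (11.8%), against 16% of all tested genes. For the other 45 a 2-fold change in at least 1 direction remained inside the interval.

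**Figure D3:**
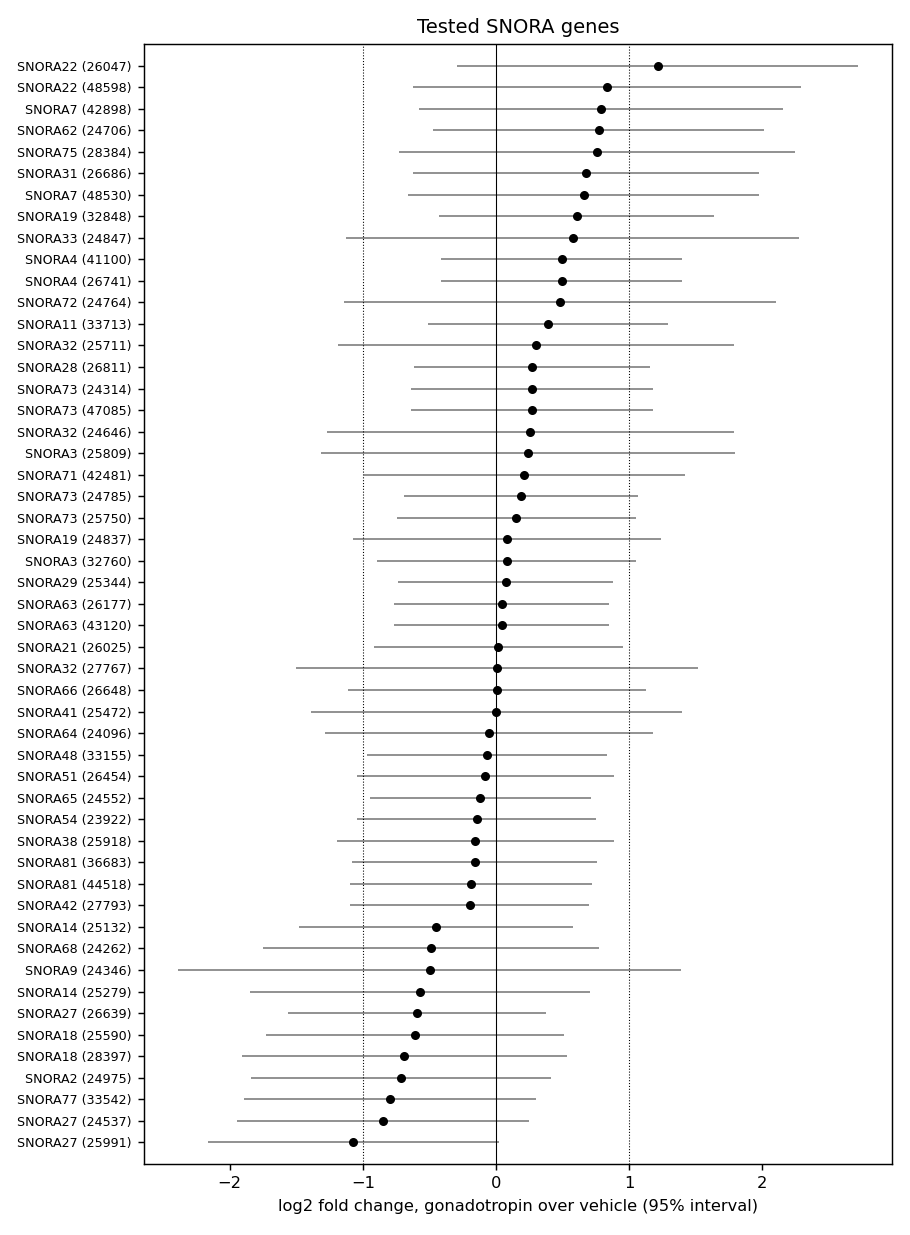
Log2 fold change of gonadotropin over vehicle with its 95% interval for the 51 tested SNORA genes, ordered by value; names carry the last 5 digits of the Ensembl gene ID and dotted lines mark a 2-fold change. All 51 intervals span 0, and values run from -1.07 (SNORA27) to 1.21 (SNORA22).

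The groups did not overlap in 2 of the 51 genes (3.92%), against 8.23% of all tested genes: 1 was lower with gonadotropin, as were 3.35% of all tested genes, and 1 was higher, as were 4.88%. SNORA27 (ENSMMUG00000025991, chromosome 20, 12881761 to 12881886) belongs to a family of 28S rRNA guides whose human gene sits in an intron of RPL21. It was at 8.28, 6.14 and 5.20 CPM in vehicle 7, 9 and 11 and at 4.81, 2.56 and 1.93 CPM in gonadotropin 8, 10 and 12. All 3 gonadotropin libraries lay below all 3 vehicle libraries after TMM scaling, with 5 to 19 counts each. Gonadotropin 8 had 12 of 2146412 counts and vehicle 11 had 13 of 2447997, so with library totals the groups overlapped. The log2 fold change was -1.07 (SE 0.48, 95% interval -2.16 to 0.02), and -0.90 with library totals.

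Each of the other two SNORA27 genes had a lower mean with gonadotropin as well, with overlapping groups. The gene on chromosome 6 (ENSMMUG00000024537) was at 8.71, 9.89 and 5.60 CPM with vehicle and 7.22, 3.2 and 3.09 CPM with gonadotropin (-0.85, SE 0.48). The gene on chromosome 17 (ENSMMUG00000026639), the one named SNORA27 in the gene name table too, was at 12.2, 14.0 and 8.0 CPM and at 10.0, 7.99 and 4.64 CPM (-0.59, SE 0.42). The 3 genes may share reads, so they are not 3 separate measurements. Without 1 library the values ran from -1.50 to -0.84, from -1.33 to -0.64 and from -0.83 to -0.34.

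SNORA11 (ENSMMUG00000033713, X chromosome, 54357888 to 54358016) and named SNORA11G in the gene name table, was the other gene without overlap. It was at 3.92, 3.75 and 3.2 CPM with vehicle and 4.41, 4.48 and 5.41 CPM with gonadotropin, with 8 to 14 counts each. The log2 fold change was 0.39 (SE 0.39), no larger than its standard error.

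The largest positive value belonged to SNORA22, also a 28S rRNA guide in human. The gene on chromosome 11 (ENSMMUG00000026047, 37532821 to 37532954) was at 2.18, 5.11 and 5.20 CPM in vehicle 7, 9 and 11 and at 12.8, 2.56 and 14.3 CPM in gonadotropin 8, 10 and 12. Gonadotropin 8 and 12 were above every vehicle library, but gonadotropin 10 was among them. The log2 fold change was 1.21 (SE 0.66, 95% interval -0.30 to 2.72). The gene on chromosome 3 (ENSMMUG00000048598) was at 3.92, 7.16 and 6.80 CPM with vehicle and 14.8, 2.56 and 15.1 CPM with gonadotropin (0.83, SE 0.64), again with gonadotropin 8 and 12 high, and with gonadotropin 10 lowest of all. The 2 genes differed by 0 to 6 counts per library and may share reads, so they are not 2 separate measurements. Their values were 1.69 and 1.32 without gonadotropin 10, and 0.85 and 0.52 without gonadotropin 12.

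SNORA62 (ENSMMUG00000024706, chromosome 2, 103296366 to 103296516), intronic in the ribosomal protein gene RPSA in human, was at 3.05, 11.9 and 4.80 CPM with vehicle and 14.8, 7.67 and 12 CPM with gonadotropin. Vehicle 9 lay within the gonadotropin range (log2 fold change 0.77, SE 0.54; 0.47 without vehicle 7 and 1.47 without vehicle 9). SNORA77 (ENSMMUG00000033542) was at 5.23, 5.80 and 3.6 CPM with vehicle and 1.6, 2.88 and 3.86 CPM with gonadotropin, where gonadotropin 12 passed vehicle 11 (-0.80, SE 0.48; -0.52 without gonadotropin 8). SNORA7 (ENSMMUG00000042898), whose human counterpart is in RPL32, had a value of 0.79 (SE 0.60) and SNORA19 (ENSMMUG00000032848), in EIF3A in human, one of 0.61 (SE 0.45). The SNORA7 value was 0.31 without vehicle 9 and 1.58 without vehicle 7, and that of SNORA19 was 0.31 without gonadotropin 10 and 0.92 without gonadotropin 8.

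**Figure D4:**
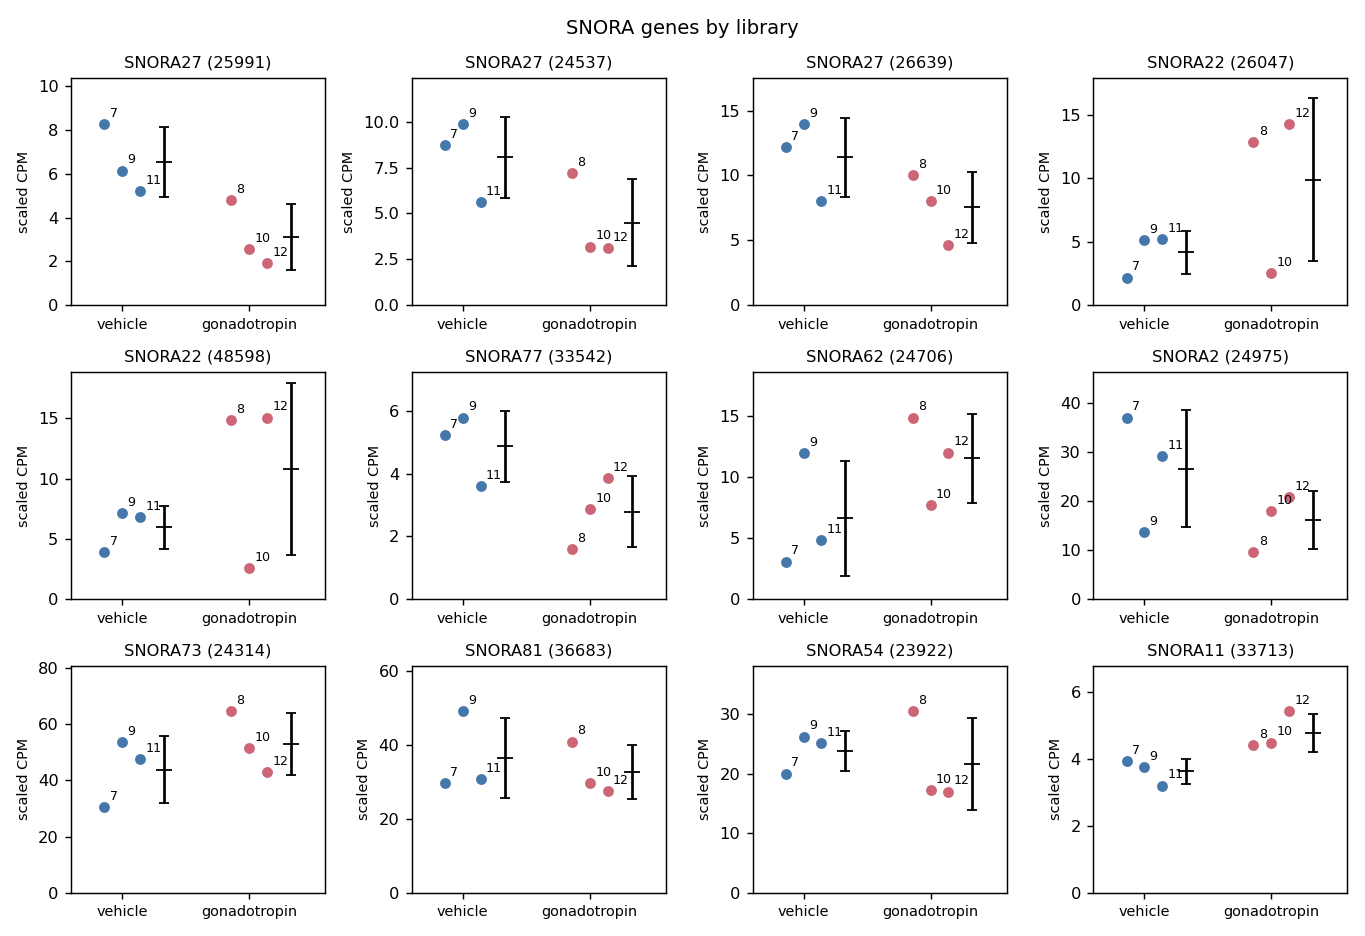
Scaled CPM of 12 SNORA genes in each library (points, numbered by animal), with mean and SD of 3 libraries per group (bars); names carry the last 5 digits of the Ensembl gene ID. Only the SNORA27 gene with the lowest value (-1.07) and the SNORA11 gene have no overlap between groups, and SNORA22 is high in gonadotropin 8 and 12 but not in 10.

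Guide targets and host genes were assigned by family number from general knowledge of the human snoRNAs, not from an annotation of the macaque genes, so these lists may hold errors and dispersed copies count with their family. Of the families listed as 18S rRNA guides 8 of 68 genes could be tested, 5 higher and 3 lower, with a median log2 fold change of 0.0045; values ran from -0.57 (SNORA14, ENSMMUG00000025279) to 0.48 (SNORA72, ENSMMUG00000024764). Without vehicle 7 this SNORA14 value was -0.26 and without vehicle 11 it was -0.95, while the SNORA72 value was 0.16 without vehicle 11 and 1.57 without vehicle 9. Of those listed as 28S rRNA guides 32 of 113 could be tested, 18 higher and 14 lower, with a median of 0.03. Both medians lay near the -0.02 of all tested genes, and 0 members of either list passed the edgeR quasi-likelihood test or had an unadjusted p under 0.05.

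Families hosted in ribosomal protein or translation factor genes gave 27 tested genes of 82, 18 higher and 9 lower (median 0.04, from -1.07 for SNORA27 to 0.79 for SNORA7). Those hosted in noncoding snoRNA host genes gave 6 of 37, 5 higher and 1 lower (median 0.20). Of these 6, 4 were SNORA73 copies, and the lowest was SNORA9 (ENSMMUG00000024346) at -0.50 (SE 0.82), a value that was -0.024 without gonadotropin 10 and -1.72 without gonadotropin 8. The TAF1D families gave 5 of 36 (median 0.0085). These were 3 SNORA32 and 2 SNORA18 genes, and genes of the same name may share reads. No gene of these 3 lists was called by the edgeR quasi-likelihood test, and 0 had an unadjusted p under 0.05.

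Within the TAF1D cluster itself (chromosome 14, 86373910 to 86378675, minus strand) the tested members had opposite signs. SNORA32 (ENSMMUG00000024646) was at 5.23, 10.9 and 1.20 CPM with vehicle and 4.41, 7.67 and 8.89 CPM with gonadotropin, a log2 fold change of 0.26 (SE 0.67) that was -0.19 without vehicle 11. SNORA18 of the same cluster (ENSMMUG00000025590), looked up for its place there, had a value of -0.61 (SE 0.49). A SNORA18 gene on chromosome 2 (ENSMMUG00000028397) had one of -0.69 (SE 0.53), which was -0.36 without gonadotropin 10 and -1.16 without gonadotropin 8. These SNORA18 genes had 67 and 62 counts, similar in each library, and may share reads, so they are not separate measurements. The highest SNORA32 library was at 9.09 times the level of the lowest.

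Spread between libraries, which includes counting error, differed among members. The SD of log2 CPM over 6 libraries (with 0.5 CPM added) had a median of 0.56 over the 51 SNORA genes, 0.54 over all tested genes and 0.69 over tested SNORD genes. It was smallest for SNORA63 (0.20) and SNORA48 (0.20; ENSMMUG00000033155, intronic in EIF4A1 in human), whose levels were 4.36, 6.14 and 4.40 CPM with vehicle and 5.61, 4.48 and 4.25 CPM with gonadotropin. It was largest for SNORA22 (1.03), SNORA9 (1.00) and SNORA32 (0.99). SNORA9 was at 0.871, 4.09 and 4.0 CPM with vehicle and 4.81, 0.639 and 1.16 CPM with gonadotropin, with 2 to 12 counts each, so counting error alone is large there. SNORA63 had 17 to 28 counts per library and SNORA48 had 10 to 18, so their small SDs do not show steady levels. The part of counting error in these SDs was not tested.

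Many genes are copies that the counting may not tell apart. In 4 pairs of genes with at least 20 counts, a chromosomal gene and a copy on an unplaced scaffold had identical counts in all 6 libraries: SNORA73, SNORA4, SNORA63 and SNORA67 (the last not tested). The rule for reads that map to several places is not given in the sources used here, so such reads may be counted at each copy. With these copies counted once, 48 tested genes remained (28 higher, 20 lower, median 0.03) and the SNORA total was 10284. These 48 still include the SNORA81, SNORA27, SNORA22, SNORA32 and SNORA18 genes that may share reads, so they are not all separate measurements. The SNORA81 copy on a scaffold (ENSMMUG00000044518) held 580 counts, where the chromosomal gene held 555, and its value was -0.19 (SE 0.40). The 3 SNORA32 genes had 105, 100 and 59 counts, with vehicle 11 lowest and vehicle 9 highest in each. The values of the other two were 0.0085 (ENSMMUG00000027767, SE 0.66) and 0.30 (ENSMMUG00000025711, SE 0.65).

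**Figure D5:**
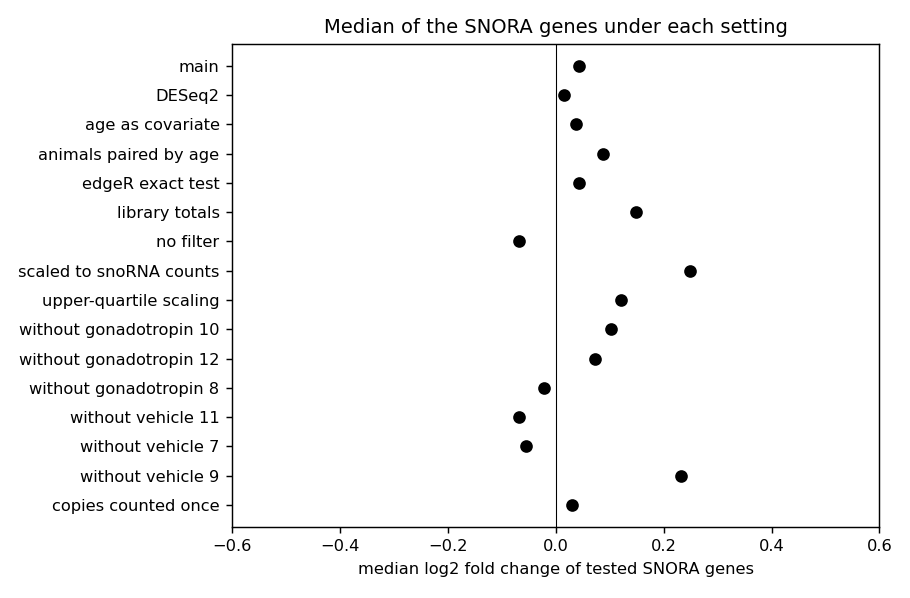
Median log2 fold change, gonadotropin over vehicle, of the tested SNORA genes with each way of processing and without each library in turn (points). The median lies between -0.07 and 0.25, on both sides of 0.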

How the data were processed

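The authors deposited raw counts per small RNA gene (HTSeq on rheMac8) and per mature miRNA (miRDeep2 on rheMac2); the tools and builds are those the deposited tables are named for. Tools named in the submitters' processing notes include HTSeq 0.6.1p1, Bowtie 1.1.2 and cutadapt 1.9.1. For strand setting and read length, the sources used here give nothing. Log2 fold changes, p-values and adjusted p-values of the authors' deposited edgeR exact test were used for comparison only.

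All 6 libraries entered 1 fit over the whole small RNA table: filterByExpr (minimum count 10, 717 genes kept), TMM scaling and the robust quasi-likelihood test of edgeR 4.0.16 in R 4.3.3, with Benjamini-Hochberg adjustment over all tested genes and a threshold of 0.05. The biological coefficient of variation was 46.2%. The SE was obtained from the log2 fold change and F (its size over the root of F), and the 95% interval uses the fit's degrees of freedom. Shares and ratios were tested by exact permutation over 20 splits. The fit was tested on simulated data. Alternatives were library totals, upper-quartile scaling, scaling to snoRNA counts, no filter, DESeq2 1.42.0, the edgeR exact test, age as covariate, pairs by age, each library left out, and, for the share and ratio, leaving out the top SNORA gene, the top gene of the table or SNORD112 to SNORD116. Counting copies once in the share and ratio was added after seeing the data.

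Members and lists were chosen with earlier results of these data known. Genes named were the 10 with the smallest p, the 10 most abundant, those without overlap, the extremes of each list and copy family, those holding a miRNA, and the 3 most and 3 least variable; others are marked as looked up. The gene name table held 106 of the 238 IDs.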

Additional observations from a re-analysis of the deposited data

How the results depend on the processing

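No SNORA gene was called under any of the 14 alternatives (smallest adjusted p from 0.575 to 0.9996), with 0 to 3 SNORA genes at an unadjusted p under 0.05. Calls over all small RNA genes numbered 1, 3 with DESeq2, 3 with the edgeR exact test, 3 with no filter, 0 with pairs by age, and 0 to 1 without 1 library. The SNORA median ran from -0.07 (no filter) to 0.25 (scaled to snoRNA counts), and from -0.07 to 0.23 without 1 library. The share difference ran from -0.0030 to 0.0193 percentage points without 1 library, and the log2 ratio difference from 0.0026 to 0.48. Of 30 named genes, 11 changed sign in 19 of 419 values. Of these, a pair was moved by the method: SNORA32 ENSMMUG00000027767 (-0.0099 with DESeq2, -0.018 with age as covariate) and SNORA48 (0.056 with library totals, 0.088 scaled to snoRNA counts). Without 1 library the ranges were -0.20 to 0.29 for SNORA3, -0.19 to 1.04, -0.12 to 0.45 and -0.45 to 0.52 for SNORA32 (ENSMMUG00000024646, ENSMMUG00000025711, ENSMMUG00000027767; the second did not pass the filter without vehicle 9, so its range lacks that fit), -0.18 to 0.054 for SNORA48, -0.068 to 0.15 for SNORA63 and its copy, -0.030 to 0.31 and -0.031 to 0.33 for SNORA73 (ENSMMUG00000024785, ENSMMUG00000025750), and -0.34 to 0.043 and -0.35 to 0.0041 for SNORA81 and its copy. The cause was not tested. Fits without 1 library applied the filter anew. Titles give the groups no shared replicate number, so animals were paired by age only. With 41 to 779 counts per tested gene, depth limits what can be seen.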

Other observations

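Of the other H/ACA RNAs SCARNA15 and SCARNA18 had the most counts, and both were singled out after their values were seen. SCARNA15 (ENSMMUG00000036436, chromosome 7, 61093094 to 61093220, rheMac8), a small Cajal body RNA whose human counterpart is reported to be cut into small RNAs by Dicer, had 941, 992 and 900 counts in vehicle 7, 9 and 11 and 869, 1194 and 1262 in gonadotropin 8, 10 and 12. That single gene equalled 39.5% to 69.9% of the summed counts of all 238 SNORA genes in a library. Per 100 nt its level was 305 CPM, against 23.7 CPM for the most abundant SNORA73 genes. Its log2 fold change was 0.14 (SE 0.31), and the groups overlapped. SCARNA18 (ENSMMUG00000035871) had 394 counts, or 29.2 CPM per 100 nt, also above every SNORA gene, with a log2 fold change of 0.32 (SE 0.49). The others had 1 to 197 counts each. Of 16 H/ACA SCARNA genes and telomerase RNA, 6 could be tested, 4 with higher and 2 with lower values (median 0.20), and 0 passed the edgeR quasi-likelihood test or had an unadjusted p under 0.05. Telomerase RNA, which carries an H/ACA domain, had 15 counts over the 6 libraries.

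Of the miRNAs reported to lie within H/ACA snoRNAs, miR-664 (tied to SNORA36) was found by name in the miRNA table. It had 270, 103 and 103 counts in vehicle 7, 9 and 11 and 69, 148 and 155 in gonadotropin 8, 10 and 12, which are 181, 73.4 and 76.7 CPM and 62.7, 84.7 and 111 CPM of library totals. Vehicle 7 was highest and the other libraries of both groups overlapped. In human the miRNA lies in SNORA36B; the gene of that name in the gene name table (ENSMMUG00000034621, chromosome 1) had 1 count over all 6 libraries. Another SNORA36 gene, SNORA36A (ENSMMUG00000025417, X chromosome), had 15 counts, and neither was tested. The miRNA counts (miRDeep2, rheMac2) and snoRNA counts (HTSeq, rheMac8) come from different tools and genome builds, so their levels cannot be compared directly.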
